A study of Mus musculus with 18 samples.

Results

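Genes that are usually read as smooth muscle genes, or as targets of serum response factor and YAP, were followed across 3 lines of C2C12, a mouse myoblast line that fuses into multinucleated myotubes once serum is lowered. The set is 10 symbols looked up among the 55450 genes of the count table: Acta2, Actg2, Tagln, Cnn1, Cnn2, Myl9, Srf, Vcl, Amotl2 and Lats2. All 10 were found under 1 identifier each and all 10 passed the filter on low counts, which left 17912 genes. The study measured polyadenylated RNA to ask how the dosage of the Dlk1-Dio3 noncoding RNA cluster bears on the state and differentiation of muscle cells. Its control was a sorted, EGFP-positive population that had received the pX458 vector without guides. The other lines were grown from single cells after transfection with a pair of guide RNAs and Cas9 aimed at the Meg3 proximal promoter, and the labels call them a Dlk1-Dio3 overexpressor and a Dlk1-Dio3 knockout. Each line was sampled before differentiation, as myoblasts, and on its day 3, as myotubes, which gives 6 groups of 3 libraries (A, B and C). Each genotype is therefore 1 line, and for the mutants 1 clone, so that genotype and clone cannot be told apart. The labels do not say that libraries came from separate cultures, so p-values measure the spread between these libraries, which may be technical.

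The set has a shared logic. Serum response factor, the product of Srf, binds a DNA element called the CArG box, and which genes it switches on depends on its partners: myocardin and the actin-sensing MRTF proteins direct it to contractile and cytoskeletal genes, and the ETS factors ELK1, ELK3 and ELK4 to immediate early genes. YAP and its relative TAZ (Wwtr1) act through the TEAD factors, and the LATS kinases and angiomotin proteins hold them out of the nucleus. Both routes respond to the state of the actin cytoskeleton, and several genes answer to both. Myoblasts in culture carry smooth muscle actin, transgelin and calponin, and skeletal muscle differentiation is known for exchanging them for sarcomeric actins.

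RefSeq windows on the mouse assembly GRCm38.p6 were held for 8 of the 10 genes, all but Actg2 and Tagln. The 250 bases before the annotated start were searched on both strands for the exact CArG box, for a CArG-like box (1 G or C among the central A and T bases) and for the TEAD motif GGAATG (complement CATTCC). The stretches with a match are shown, chosen by their letters alone and not from known sites. Capitals mark the matches, and each sequence runs 5′ to 3′ on the strand of its gene.
Myl9 at chr2:156775283-156775394, plus strand: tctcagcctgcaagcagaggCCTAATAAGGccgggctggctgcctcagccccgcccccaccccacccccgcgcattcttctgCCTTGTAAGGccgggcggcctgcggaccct
Cnn2 at chr10:79988524-79988573, plus strand: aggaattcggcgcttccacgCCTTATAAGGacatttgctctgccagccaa
Srf at chr17:46556195-46556264, minus strand: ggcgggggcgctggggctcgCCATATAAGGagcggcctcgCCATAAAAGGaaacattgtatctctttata
Vcl at chr14:20929151-20929280, plus strand: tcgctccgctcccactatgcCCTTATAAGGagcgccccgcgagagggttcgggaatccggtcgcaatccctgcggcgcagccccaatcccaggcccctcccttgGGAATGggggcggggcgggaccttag
Acta2 at chr19:34255438-34255467, minus strand: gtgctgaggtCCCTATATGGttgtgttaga
Acta2 at chr19:34255388-34255417, minus strand: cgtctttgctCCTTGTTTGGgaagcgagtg
Acta2 at chr19:34255504-34255529, minus strand: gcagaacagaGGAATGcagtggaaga
Amotl2 at chr9:102717729-102717754, plus strand: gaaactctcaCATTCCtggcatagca
The exact CArG box was present in 4 genes: Myl9, Cnn2, Vcl and Srf, which holds 2. Acta2 holds 2 CArG-like boxes and Myl9 holds 1, so that 5 of the 8 genes carry either form. The TEAD motif was found in Acta2, Vcl and Amotl2, and Cnn1 and both windows of Lats2 held none of the searched letters. Of 32851 RefSeq windows of the same length, 1.47% held the exact CArG box, 7.24% a CArG-like box, 8.59% either form and 12.6% the TEAD motif. The stretches of Acta2 and Amotl2 precede the RefSeq start but lie wholly within annotated exons of these genes in GENCODE M21, whose gene models begin farther upstream. Those of Myl9, Cnn2, Srf and Vcl overlap no annotated exon of their gene. A match is a description of letters and not evidence of binding, and these genes are known partly because of such boxes.

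**Figure D1:**
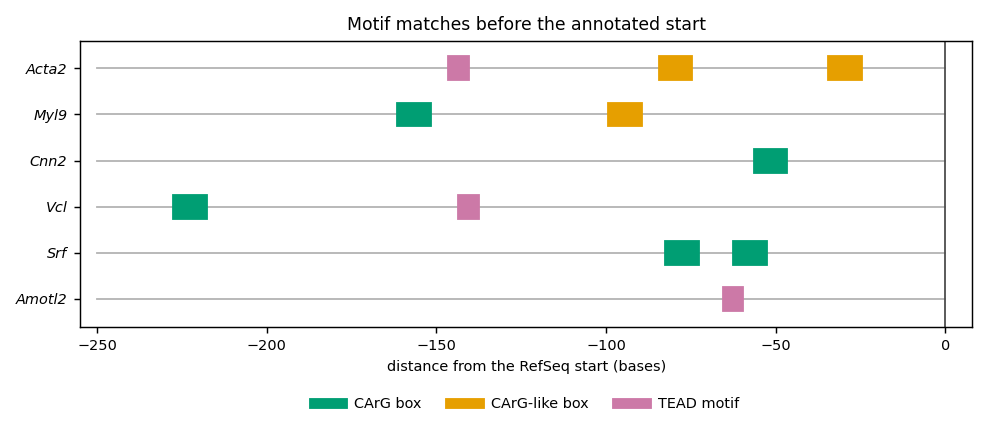
Positions of the CArG box, the CArG-like box and the TEAD motif in the 250 bases before the RefSeq start, in bases from that start, for the 6 genes with a match; the box width is the length of the motif. The exact CArG boxes of Srf and Cnn2 lie within 82 bases of the start, that of Vcl at 227.

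A few facts of the series touch every value below. Libraries held 41544358 to 79140702 counts, so a count of 0 allows up to 3 counts, or at most 0.0693 CPM (counts relative to library totals after TMM scaling), for counting error only. Meg3, the targeted gene, had 0 counts in all control and all knockout libraries and 5222 to 7763 in the overexpressor libraries. Rian, another RNA of the cluster, had 0 to 1 counts in control, 0 to 4 in knockout and 8206 to 13241 in overexpressor libraries. Both genes separate the overexpressor but do not check the knockout label, on which the directions for that line rest. Library C of the overexpressor myotubes stood apart from A and B (chi-square per degree of freedom of 108 and 103, against 21.015 between A and B), and so, less widely, did overexpressor myoblast library B (34.1 and 30.2, against 7.86 between A and C). Knockout myotube libraries A and C differed by 50.4, against 19.3 and 22.04 for the other pairs. In myotubes the scaling moves the median of all genes: for overexpressor against control from -0.04 with TMM to 0.11 with library totals, for knockout against control from -0.07 to 0.06 with DESeq2 size factors, and for differentiation in the control from 0.07 to -0.17 and in the knockout from -0.08 to -0.24 with library totals. In bulk samples, fewer cells of a type and less RNA per cell cannot be told apart.

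Of 4 markers of smooth muscle cells, Myh11 and Myocd were at or near 0. Myh11, the smooth muscle myosin heavy chain, had 0 to 14 counts per library, and Myocd, the smooth muscle cofactor of serum response factor, had 0 to 37, with 3 or fewer in every control myotube library. Smtn (smoothelin) stood at group means of 159 to 251 CPM and Lmod1 (leiomodin, an actin nucleator) at 0.68 to 83.9 CPM. The 4 markers summed to 193 to 204 CPM in control, 182 to 207 in overexpressor and 199 to 205 in knockout myoblasts. In myotubes their sum was 160.1 to 175 CPM in control (Myocd at or under the floor), 245 to 284 in overexpressor and 306 to 363 in knockout. Smtn made up most of each sum. In overexpressor against control myoblasts Lmod1 was lower by 5.03 on the log2 scale (adjusted p = 1.52e-15), which the sum does not show. The other 3 did not pass there (20.7% of all genes higher, 19.7% lower). The part of these 4 markers in the results was not tested. The myoblast markers Myod1, Myf5 and Des summed to 1081 to 1204 CPM in control, 2221 to 2666 in overexpressor and 2997 to 3452 in knockout myoblasts. In myotubes they summed to 2267 to 2365, 5179.82 to 6295 and 7351 to 9857 CPM, in the same order. These 3 markers did not move together, so their sum does not stand for each of them. With differentiation 1 was called higher and 1 lower in the control (33.9% and 28.8% of all genes). In the overexpressor 1 was higher and 2 were lower (29.8% and 33.0% of all genes). In the knockout 2 were higher and 1 was lower (29.8% and 35.6% of all genes). For the myotube markers, the summed level of Myog, Myh3, Ckm and Tnnt3 was 143 to 211 CPM in control myoblasts, 282 to 443 in overexpressor myoblasts and 4653 to 5929 in knockout myoblasts. It was 6860 to 7823 CPM in control myotubes, 11712 to 12486 in overexpressor myotubes and 13904 to 15687 in knockout myotubes. The knockout myoblasts thus carried myotube markers at many times the control level, and the part of the myoblast and myotube markers in the results below was not tested.

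In myoblasts, the overexpressor had less of these genes and the knockout had more. None of the 10 was higher in overexpressor than in control myoblasts and 8 were lower, against 20.7% of all genes tested called higher and 19.7% called lower. Myl9, Cnn1, Tagln, Acta2, Actg2, Amotl2, Lats2 and Srf fell, and Cnn2 (log2 fold change -0.17, adjusted p = 0.113) and Vcl (-0.12, adjusted p = 0.139) did not pass. The median log2 fold change was -1.11, against 0.02 over all genes. In knockout against control myoblasts 8 genes were higher and 1 was lower, where 26.4% of all genes were called higher and 26.6% lower. Cnn1 was the lower gene and Srf the 1 that did not pass, and the median was 0.38 against 0.02 over all genes. Set against each other, all 10 genes were lower in overexpressor than in knockout myoblasts (25.7% of all genes higher, 26.9% lower), with a median of -1.73 against -0.02. Both mutant lines were compared with the same control libraries, so these differences are not independent of each other.

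In myotubes, the contractile genes were higher in both mutant lines than in the control. In the overexpressor 7 genes were higher (Acta2, Actg2, Tagln, Myl9, Cnn1, Cnn2 and Srf) and Amotl2 was lower, against 26.2% and 30.9% of all genes. Vcl and Lats2 did not pass, and the median was 1.28 against -0.04 over all genes. In the knockout these 7 genes and Vcl were higher and Lats2 was lower, against 31.0% and 37.0% of all genes. Amotl2 did not pass, and the median was 1.64 against -0.07. With DESeq2 size factors or library totals, 8 were higher and 0 lower. Between the mutant lines, 8 genes were lower in overexpressor than in knockout myotubes and none was higher (30.6% of all genes higher, 29.1% lower), with a median of -0.46 against 0.02. Without overexpressor library C, 9 genes passed against the control, and 7 against the knockout. The summed level of the fibroblast markers Pdgfra, Dpt, Pi16, Dcn and Lum was 189 to 215 CPM in control myotubes, 17.9 to 21.02 in overexpressor myotubes and 64.8 to 76.1 in knockout myotubes, with Lum at or under the floor in the overexpressor. In control, overexpressor and knockout myoblasts that sum was 34.7 to 36.9, 33.9 to 36.3 and 44.2 to 47.2 CPM. The pericyte markers were Rgs5, Kcnj8 and Abcc9, of which only 1 passed the filter on low counts. In myotubes they summed to 0.778 to 1.12 CPM in control, 3.75 to 5.15 in overexpressor and 11.9 to 12.6 in knockout. Kcnj8 was at or under the floor in all groups and Rgs5 in control and overexpressor myotubes, whose sums were thus almost all Abcc9. In control, overexpressor and knockout myoblasts the pericyte sum was 0.045 to 0.094, 0.069 to 0.14 and 1.51 to 1.62 CPM. The 4 endothelial and 3 macrophage markers never summed to over 0.871 CPM. The part of these cell types in the differences was not tested.

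**Figure D2:**
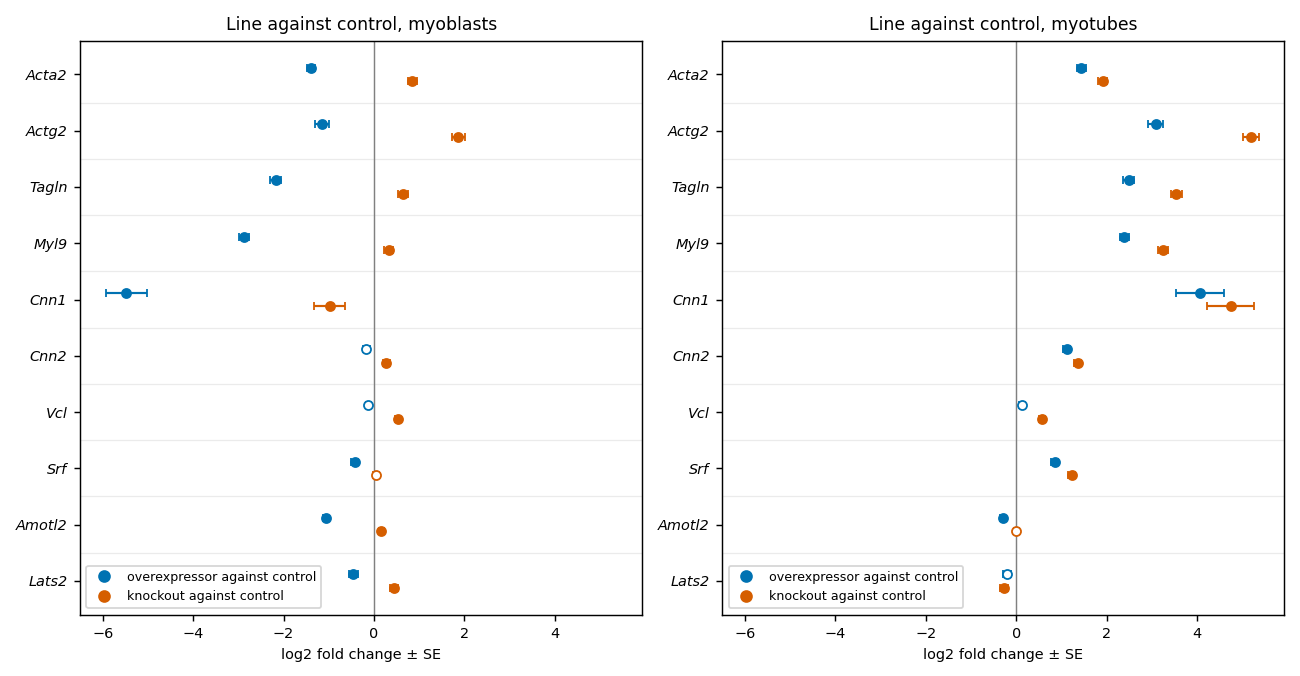
Log2 fold change of each gene in the overexpressor and the knockout against the control, in myoblasts (left) and myotubes (right), with the standard error as a bar and a filled point where the adjusted p was under 0.05. The overexpressor points of Acta2, Actg2, Tagln, Myl9 and Cnn1 lie below 0 in myoblasts and above 0 in myotubes, while the knockout points of these genes lie above 0 in both stages, except that of Cnn1 in myoblasts.

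With differentiation, most of these genes fell in the control and rose in the overexpressor. In the control, 7 genes fell from myoblasts to myotubes and none rose, against 28.8% of all genes lower and 33.9% higher, and Vcl, Amotl2 and Lats2 did not pass. The median was -1.30, against 0.07 over all genes. In the overexpressor 9 genes rose and Cnn2 alone fell, against 29.8% of all genes higher and 33.0% lower, with a median of 0.57 against -0.02. Without overexpressor myotube library C, 9 of the 10 passed, and the 1 lost was Cnn2. Without overexpressor myoblast library B 9 passed as well, and the 1 lost was Actg2. In the knockout 2 genes rose (Tagln and Srf), 5 fell (Actg2, Cnn1, Cnn2, Amotl2 and Lats2) and 3 did not pass, against 29.8% of all genes higher and 35.6% lower, and the median was -0.11 against -0.08. These knockout counts moved with the scaling: DESeq2 size factors gave 3 higher and 4 lower, and library totals gave 0 higher and 6 lower. Without knockout myotube library C, 5 members passed in place of 7, and the calls lost were Tagln and Srf.

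The difference between the responses was tested directly, as an interaction. Of the 10 genes, 9 had a higher response in the overexpressor than in the control and none a lower one, where 16.6% of all genes were called higher and 22.3% lower. The median difference was 2.06 on the log2 scale, against -0.05 over all genes, and Lats2 did not pass. In the knockout against the control, 7 genes had a higher response and Lats2 a lower one (20.2% and 29.9% of all genes), with a median of 1.14 against -0.12. Between the overexpressor and the knockout, 7 genes had a higher response and none a lower one (24.3% and 22.4% of all genes), with a median of 0.94 against 0.06. Cnn2, Srf and Vcl were the 3 whose response did not pass between the mutant lines. Cnn2 passed with library totals (adjusted p = 0.0356) and without overexpressor myotube library C (adjusted p = 0.0218), and Vcl with library totals (adjusted p = 0.0143) and without overexpressor myoblast library B (adjusted p = 0.0384) or myotube library A (adjusted p = 0.0388). Lats2, against the control, passed in the overexpressor with library totals (0.43, adjusted p = 0.0210) and DESeq2 size factors (0.36, adjusted p = 0.0253). It also passed with DESeq2's Wald test (0.36, adjusted p = 0.0189).

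**Figure D3:**
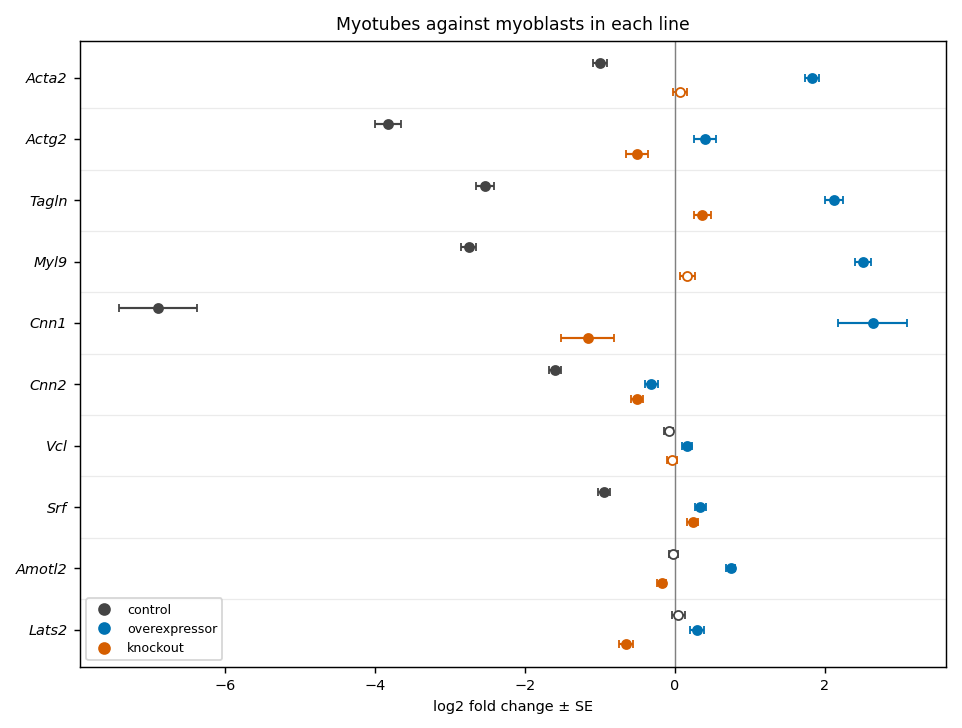
Log2 fold change from myoblasts to myotubes in each of the 3 lines, with the standard error as a bar and a filled point where the adjusted p was under 0.05. The control points of Acta2, Actg2, Tagln, Myl9, Cnn1, Cnn2 and Srf lie left of 0, the overexpressor points of all but Cnn2 lie right of 0, and the knockout points of the 10 genes run from -1.17 to 0.37.

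Acta2 encodes smooth muscle alpha actin (ENSMUSG00000035783, chr19:34241090-34255590, minus strand) and was the most abundant of the set per length, at 668 to 3293 RPKM (CPM per kilobase of merged exon) as group means. In control myoblasts the order per length, as mean RPKM, was Acta2 (1752), Cnn2 (164), Tagln (140.2), Myl9 (139.7), Actg2 (94.9), Vcl (69.9), Amotl2 (45.6), Srf (34.8), Cnn1 (10.7) and Lats2 (5.28). Tagln, Vcl (2090 of 8191 bases) and Lats2 (2955 of 6971 bases) share exon bases with other genes. Reads in shared bases may not have been counted, so the places of these genes per length are uncertain. The level of Acta2 in control myoblasts was 3791, 3906 and 3844 CPM in libraries A, B and C. In overexpressor myoblasts it was 1522, 1304 and 1574 CPM, and in knockout myoblasts 6841, 7072 and 6858 CPM. The 3 lines did not overlap: the overexpressor was lowest and the knockout highest. Against the control, Acta2 was 2.62-fold lower in the overexpressor (log2 fold change -1.39, SE 0.09, adjusted p = 1.02e-09). It was 1.80-fold higher in the knockout (0.85, SE 0.09, adjusted p = 4.22e-07). In myotubes the control libraries had 1749, 2101 and 1906 CPM, the overexpressor 5386, 5772 and 4473 CPM and the knockout 6737, 7240 and 7714 CPM. The control was now the lowest, and library C, the lowest of the overexpressor, still had more than any control library. The myotube differences were 2.72-fold for the overexpressor (1.44, SE 0.09, adjusted p = 3.08e-10) and 3.77-fold for the knockout (1.91, SE 0.10, adjusted p = 6.62e-12). Acta2 fell 2.01-fold with differentiation in the control (adjusted p = 2.87e-08), rose 3.55-fold in the overexpressor (1.83, adjusted p = 8.31e-12) and overlapped between stages in the knockout (0.06, adjusted p = 0.569). Ordered by level, the groups ran overexpressor myoblasts, control myotubes, control myoblasts, overexpressor myotubes, knockout myoblasts and knockout myotubes, and only the last pair of neighbours overlapped.

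Actg2 encodes the enteric smooth muscle gamma actin (ENSMUSG00000059430, chr6:83512905-83536265, minus strand). It showed the widest gap between the lines in myotubes: 7.62, 14.2 and 9.45 CPM in the control, 96.8, 91.6 and 76.4 CPM in the overexpressor, and in the knockout 341, 379 and 416 CPM. No library of one line reached the values of another. Against the control this was 8.50-fold in the overexpressor (log2 fold change 3.09, SE 0.16, adjusted p = 1.35e-10) and 36.5-fold in the knockout (5.19, SE 0.18, adjusted p = 5.54e-13). The order of the groups was control myotubes, overexpressor myoblasts, overexpressor myotubes, control myoblasts, knockout myotubes and knockout myoblasts, with no overlap between neighbours. In myoblasts the libraries had 142, 149 and 153 CPM in the control, 69.3, 63.5 and 67.4 CPM in the overexpressor, and in the knockout 558, 541 and 518 CPM. The order of the lines was that of Acta2, with a change of -1.15 in the overexpressor (adjusted p = 1.18e-05) and 1.87 in the knockout (adjusted p = 3.04e-08). With differentiation Actg2 fell 14.2-fold in the control (-3.83, adjusted p = 7.87e-12) and by 0.51 on the log2 scale in the knockout (adjusted p = 0.00656). Its rise in the overexpressor (0.40, adjusted p = 0.0268) was lost with library totals (adjusted p = 0.0508) and without overexpressor myoblast library B or C or myotube library A or B (highest adjusted p 0.0940).

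The actin genes are similar, so reads could in principle be shared between copies. Aligned over the coding sequence, Acta2 and Actg2 were 84.2% identical, and Acta2 and the skeletal actin Acta1 85.4%. The longest run without a mismatch was 29 bases for both pairs, 38 bases for Actg2 with the cardiac actin Actc1 and 47 bases for Acta2 with the cytoplasmic actin Actb. In the control the sarcomeric actins went the other way from the smooth muscle ones. Acta1 rose with differentiation in the control by 6.12 on the log2 scale (adjusted p = 5.09e-11), from 76.8 ± 24.5 to 5337 ± 490 CPM (SD, n = 3), and Actc1 by 4.89 (adjusted p = 2.64e-14). In the overexpressor Acta1 rose by 5.94 (adjusted p = 6.13e-11) and in the knockout by 1.89 (adjusted p = 5.50e-06), from 4254 ± 649 CPM in its myoblasts (SD, n = 3).

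Tagln encodes transgelin, an actin-binding protein of the calponin family (ENSMUSG00000032085, chr9:45929619-45936058, minus strand). In myoblasts it stood at 274, 285 and 278 CPM in the control, 62.6, 57.5 and 64.8 CPM in the overexpressor, and in the knockout 438, 442 and 424 CPM. In myotubes the values were 36.1, 58.7 and 49.4 CPM in the control, 289, 271 and 246 CPM in the overexpressor, and in the knockout 519, 556 and 606 CPM. The lines did not overlap in either stage, and the control went from the middle to the lowest place. Over all groups, control myotubes overlapped overexpressor myoblasts at the low end, overexpressor myotubes overlapped control myoblasts, and knockout myoblasts and then knockout myotubes lay above them, apart from each other. Tagln was 4.52-fold lower than the control in overexpressor myoblasts (log2 fold change -2.18, SE 0.12, adjusted p = 1.50e-10). It was higher by 2.48 in overexpressor myotubes (SE 0.12, adjusted p = 1.49e-11). In the knockout it was higher by 0.64 in myoblasts (adjusted p = 0.000173) and by 3.54 in myotubes (adjusted p = 2.24e-13). From myoblasts to myotubes Tagln fell by 2.54 in the control (adjusted p = 6.86e-12) and rose by 2.12 in the overexpressor (adjusted p = 6.02e-11). Its smaller rise in the knockout (0.37, adjusted p = 0.0114) was lost with library totals (0.19, adjusted p = 0.156) and without knockout myotube library C (adjusted p = 0.0545). Tagln shares exon bases with Pcsk7 and Gm48529 on the opposite strand, and whether strand was used in counting is not given in the sources used here. The group means of Pcsk7 ran from 36.8 to 48.9 CPM and those of Gm48529 from 1.58 to 4.61 CPM.

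Myl9 encodes the regulatory light chain of smooth muscle and nonmuscle myosin (ENSMUSG00000067818, chr2:156775420-156781658, plus strand), and its promoter carries an exact and a variant CArG box, printed above. Its myoblast values were 160, 165 and 162 CPM in the control, 22.8, 19.8 and 23.9 CPM in the overexpressor, and in the knockout 207, 198 and 205 CPM. Its myotube values were 20.3, 27.4 and 24.6 CPM in the control, 138, 127 and 112 CPM in the overexpressor, and in the knockout 212, 230 and 242 CPM. The low level of overexpressor myoblasts overlapped that of control myotubes, and above them came overexpressor myotubes, control myoblasts, knockout myoblasts and knockout myotubes, without overlap. Against the control, Myl9 was 7.33-fold lower in overexpressor myoblasts (log2 fold change -2.87, SE 0.10, adjusted p = 1.93e-13). It was 5.23-fold higher in overexpressor myotubes (2.39, SE 0.10, adjusted p = 7.68e-13). In the knockout the difference was 0.32 in myoblasts (adjusted p = 0.00739) and 3.24 in myotubes, or 9.48-fold (adjusted p = 1.93e-14). With differentiation Myl9 fell by 2.75 in the control (adjusted p = 7.19e-14) and rose by 2.51 in the overexpressor (adjusted p = 2.56e-13). In the knockout the difference of 0.17 did not pass (adjusted p = 0.129), was called with DESeq2 size factors (0.29, adjusted p = 0.0189), and turned in sign with library totals (-0.0051). The light chain genes Myl12a and Myl12b were 85.5% and 86.3% identical to Myl9 over the coding sequence, with a longest shared run of 35 bases.

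**Figure D4:**
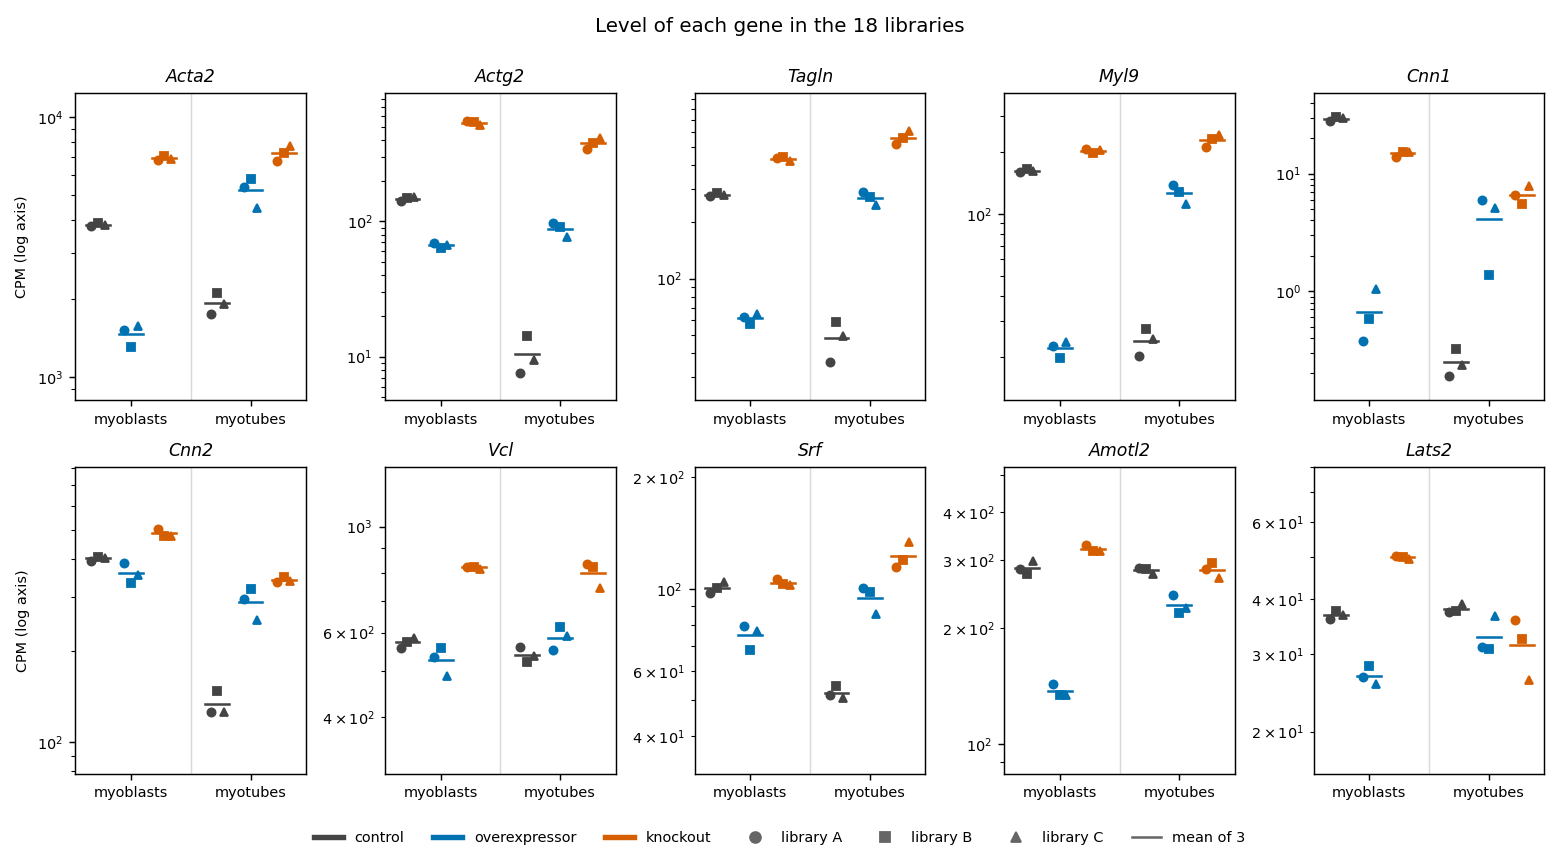
CPM of each gene in every library (points, log axis) and the mean of 3 libraries (line), by stage and line. Acta2, Actg2, Tagln and Myl9 have their lowest values in overexpressor myoblasts and control myotubes, and the group means of Vcl, Amotl2 and Lats2 range over at most 1.23 on the log2 scale.

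Cnn1 encodes calponin-1 or basic calponin, which binds actin and holds back actomyosin (ENSMUSG00000001349, chr9:22099216-22109630, plus strand). Its group means spanned 0.0907 to 10.7 RPKM, the widest span of the set (6.71 on the log2 scale). Control myoblasts had 28.1, 30.3 and 29.6 CPM, overexpressor myoblasts 0.379, 0.582 and 1.04 CPM, and knockout myoblasts 13.8, 15.4 and 15.4 CPM. Cnn1 was the 1 gene of the set that was lower in both mutant lines in this stage, by 5.48 on the log2 scale in the overexpressor (SE 0.46, adjusted p = 1.73e-07) and by 0.98 in the knockout (SE 0.35, adjusted p = 0.0275). The knockout call was lost without the filter on low counts (adjusted p = 0.0678) and without control library B or C or any 1 of the knockout libraries (highest adjusted p 0.0807), although the groups did not overlap. In myotubes the control fell to 0.189, 0.320 and 0.235 CPM, while the overexpressor had 5.93, 1.38 and 5.06 CPM and the knockout 6.52, 5.49 and 7.88 CPM. Library B of the overexpressor was low against A and C but above every control library. Against the control, Cnn1 was 16.6-fold higher in the overexpressor (4.06, SE 0.53, adjusted p = 1.03e-05) and 26.9-fold higher in the knockout (4.75, SE 0.52, adjusted p = 1.39e-06). The mutant lines overlapped in myotubes (-0.69, adjusted p = 0.116), and the difference passed without overexpressor library A (-1.05, adjusted p = 0.0333). From lowest to highest, the groups were control myotubes, overexpressor myoblasts, overexpressor myotubes, knockout myotubes, knockout myoblasts and control myoblasts, and only the mutant myotubes overlapped. With differentiation Cnn1 fell 119-fold in the control (-6.89, SE 0.52, adjusted p = 1.85e-08) and 2.24-fold in the knockout (adjusted p = 0.0104), and rose 6.22-fold in the overexpressor (adjusted p = 0.000137).

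Cnn2 encodes calponin-2, the more widely expressed calponin (ENSMUSG00000004665, chr10:79988584-79996062, plus strand), 64.6% identical to Cnn1 over the coding sequence. It did not share the low level of overexpressor myoblasts: these had 388, 333 and 356 CPM, control myoblasts 396, 408 and 405 CPM and knockout myoblasts 505, 478 and 478 CPM. The difference between overexpressor and control (-0.17) passed when only these groups were fitted (-0.20, adjusted p = 0.0302). In myotubes the control had 126, 148 and 126 CPM, the overexpressor 297, 318 and 252 CPM and the knockout 337, 349 and 339 CPM. Above control myotubes came overexpressor myotubes, then knockout myotubes and overexpressor myoblasts, which overlapped, then control and knockout myoblasts. Control myotubes were 2.17-fold under the overexpressor (log2 fold change 1.12, SE 0.08, adjusted p = 1.44e-09) and 2.57-fold under the knockout (1.36, SE 0.08, adjusted p = 9.03e-11). Cnn2 fell with differentiation in all 3 lines, 3.03-fold in the control (adjusted p = 7.33e-12), by 0.31 in the overexpressor (adjusted p = 0.00241) and by 0.51 in the knockout (adjusted p = 2.71e-05). The fall in the overexpressor was lost without its myotube library C (adjusted p = 0.0518), and the difference between the mutant myotubes (-0.24, adjusted p = 0.0152) without overexpressor library C (adjusted p = 0.186) or knockout library B (adjusted p = 0.0503) and with library totals (adjusted p = 0.142).

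Srf, which encodes serum response factor itself (ENSMUSG00000015605, chr17:46548329-46556175, minus strand), changed on a smaller scale. Myoblast values were 97.4, 101 and 104 CPM in the control, 79.2, 68.2 and 77.0 CPM in the overexpressor, and in the knockout 106, 103 and 102 CPM, where knockout and control overlapped. In myotubes Srf had 51.6, 54.5 and 50.6 CPM in the control, 101, 97.7 and 85.3 CPM in the overexpressor, and in the knockout 115, 120 and 134 CPM, with no overlap. Across stages, overexpressor myotubes overlapped control myoblasts, and control myotubes were lowest and knockout myotubes highest. Srf was lower by 0.43 in overexpressor myoblasts (SE 0.07, adjusted p = 0.000131), and higher by 0.86 in overexpressor myotubes (SE 0.08, adjusted p = 1.67e-08) and by 1.23 in knockout myotubes (SE 0.08, adjusted p = 1.11e-10). It fell 1.93-fold with differentiation in the control (-0.95, adjusted p = 3.17e-09) and rose in the overexpressor (0.34, adjusted p = 0.000647). The rise in the knockout (0.24, adjusted p = 0.00947) was lost with library totals (0.07, adjusted p = 0.412) and without knockout myotube library C (adjusted p = 0.0611). The response differed from that of the control by 1.28 in the overexpressor (adjusted p = 2.07e-08) and 1.18 in the knockout (adjusted p = 5.05e-08), and the mutant responses differed by 0.10 (adjusted p = 0.455), which did not pass.

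Vcl encodes vinculin, which links actin to integrin and cadherin adhesions (ENSMUSG00000021823, chr14:20929398-21033676, plus strand). Its promoter holds a CArG box and the TEAD motif, and its level changed little between stages. Myoblasts had 559, 575 and 584 CPM in the control, 534, 557 and 487 CPM in the overexpressor, and in the knockout 823, 824 and 817 CPM. Myotubes had 561, 521 and 535 CPM in the control, 551, 617 and 591 CPM in the overexpressor, and in the knockout 834, 823 and 743 CPM. The 4 groups of control and overexpressor overlapped in a chain from overexpressor myoblasts through control myotubes and myoblasts to overexpressor myotubes, and the stages of the knockout overlapped each other. The knockout was above every library of the other lines, by 0.52 over the control in myoblasts (SE 0.06, adjusted p = 1.48e-06) and by 0.57 in myotubes (SE 0.06, adjusted p = 3.21e-07). Overexpressor and control myotubes overlapped (0.12, adjusted p = 0.113), and that difference was called with library totals (0.27, adjusted p = 0.00237), with DESeq2 size factors (0.23, adjusted p = 0.00636), and without overexpressor library A (adjusted p = 0.0499) or C (adjusted p = 0.0130). The rise of Vcl with differentiation in the overexpressor (0.16, adjusted p = 0.0387) was lost with library totals (0.10, adjusted p = 0.204) and without overexpressor myoblast library A or C or myotube library B (highest adjusted p 0.195). In the control, the difference of -0.09 (adjusted p = 0.246) was called with library totals (-0.33, adjusted p = 0.000350). The difference in the knockout (-0.04, adjusted p = 0.618) was also called with library totals (-0.21, adjusted p = 0.0127). The response to differentiation was larger in the overexpressor than in the control by 0.24 (SE 0.09, adjusted p = 0.0387), a call lost when only these lines were fitted (adjusted p = 0.0589) and without control library B or C of either stage, overexpressor myoblast library A or C or overexpressor myotube library B (highest adjusted p 0.112). Vcl shares exon bases with Ap3m1 on the opposite strand, which stood at group means of 21.8 to 43.9 CPM.

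Amotl2 encodes angiomotin-like 2, a junction protein that binds YAP and is itself a YAP target (ENSMUSG00000032531, chr9:102716672-102733418, plus strand). It was low in 1 group: overexpressor myoblasts had 143, 134 and 134 CPM, against 285, 277 and 299 CPM in control myoblasts and 328, 316 and 317 CPM in knockout myoblasts. The fall against the control was 2.09-fold (log2 fold change -1.06, SE 0.06, adjusted p = 3.09e-11). The small rise in the knockout (0.16, adjusted p = 0.0202) was lost with DESeq2 size factors (adjusted p = 0.0812), with library totals (adjusted p = 0.0508), without the filter (adjusted p = 0.0668), and without control library A or B or knockout library A (highest adjusted p 0.0944). In myotubes the overexpressor had 243, 219 and 225 CPM, under the control with 287, 285 and 276 CPM (-0.30, SE 0.06, adjusted p = 0.000124), and the knockout with 284, 295 and 270 CPM overlapped the control (0.0013, adjusted p = 0.986). Amotl2 rose with differentiation in the overexpressor (0.74, adjusted p = 1.32e-09) and its stages overlapped in the control (-0.02, adjusted p = 0.761), where library totals gave a fall (-0.26, adjusted p = 0.000488). It fell in the knockout by 0.18 (adjusted p = 0.00835), a call lost with DESeq2 size factors (-0.05, adjusted p = 0.474). From low to high the groups were overexpressor myoblasts, overexpressor myotubes, a trio of overlapping groups (control myotubes, knockout myotubes and control myoblasts) and knockout myoblasts.

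Lats2 encodes a kinase that phosphorylates YAP and TAZ, and YAP raises its transcription in turn (ENSMUSG00000021959, chr14:57689662-57758388, minus strand). In myoblasts it had 36.1, 37.6 and 36.8 CPM in the control, 26.7, 28.2 and 25.7 CPM in the overexpressor, and in the knockout 50.0, 50.0 and 49.3 CPM. The lines were apart in this stage, with -0.46 for the overexpressor (SE 0.09, adjusted p = 0.000563) and 0.43 for the knockout (SE 0.09, adjusted p = 0.000580). In myotubes the mutant lines overlapped each other and lay below the control, at 37.5, 37.5 and 39.0 CPM in the control, 31.1, 30.8 and 36.6 CPM in the overexpressor, and in the knockout 35.9, 32.4 and 26.3 CPM. For the overexpressor the difference from the control did not pass (-0.21, adjusted p = 0.0570). The lower level of knockout than control myotubes (-0.27, adjusted p = 0.0152) was lost with DESeq2 size factors (-0.14, adjusted p = 0.154), with library totals (adjusted p = 0.0623) and without knockout library C (adjusted p = 0.103). Lats2 fell with differentiation in the knockout by 0.66 (adjusted p = 6.45e-06), rose in the overexpressor (0.29, adjusted p = 0.0104) and overlapped between stages in the control (0.04, adjusted p = 0.687). Knockout myoblasts were the 1 group apart, and from overexpressor myoblasts up to control myotubes each neighbour overlapped the next. Its response was lower in the knockout than in the control by 0.70 (adjusted p = 0.000226), the opposite direction to the contractile genes. Lats2 shares exon bases with Gm49361 on the same strand, which is listed at 0 counts in every library, so reads in the shared bases are uncertain.

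Other smooth muscle contractile genes were described from a list of 16, all tested. In overexpressor myoblasts 2 were higher and 6 lower than in the control (20.7% and 19.7% of all genes), with a median of -0.26. Lmod1 fell by 5.03 (adjusted p = 1.52e-15), from 22.3 ± 0.78 to 0.68 ± 0.15 CPM (SD, n = 3), and Csrp2, a LIM protein, fell by 0.97. Pdlim5 rose by 0.46 and Synpo2 by 0.28, both actin-associated. In knockout myoblasts 7 were higher and 1 lower (26.4% and 26.6% of all genes), with a median of 0.37: Mylk, the kinase of the myosin light chain, rose by 2.95 and the tropomyosin gene Tpm2, which skeletal muscle also uses, by 2.15, while the crosslinker Flna fell by 0.97. In myotubes, 10 rose and 2 fell in the overexpressor (median 0.61, with 26.2% and 30.9% of all genes), led by Csrp1 (1.30) and Tpm2 (1.14), with Csrp2 (-1.22) and Cald1 (-0.45) as the falls. The fall of caldesmon, Cald1, was lost with library totals (-0.31, adjusted p = 0.0872). In knockout myotubes 11 rose and 3 fell (median 0.65, with 31.0% and 37.0% of all genes), led by Lmod1 (3.16) and Mylk (3.02), and the falls included Cald1 (-1.08) and Flna (-0.60). In the control, differentiation lowered 8 of the 16 and raised 3 (median -0.31, with 28.8% and 33.9% of all genes): Csrp1 fell by 2.29 and Flna by 1.53, and Tpm2 and Mylk rose by 2.40 and 2.05. The adjusted p of every change named here was at most 0.00847.

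Cofactors and other targets of serum response factor made up a list of 22, all tested. In overexpressor myoblasts 5 were higher and 6 lower (median -0.06), near the shares of all genes (20.7% and 19.7%). In knockout myoblasts 4 were higher and 9 lower (median -0.08, with 26.4% and 26.6% of all genes). The gene of the cofactor MRTF-B, Mrtfb, rose by 0.75 in overexpressor myoblasts, and the LIM protein gene Fhl1 by 1.35, while Actc1 fell 2.63-fold and Junb, an immediate early gene, by 1.35. In knockout myoblasts Acta1 rose by 5.79 and Actc1 by 4.97, and Junb and the focal adhesion gene Tes fell by 1.31 and 1.27. In myotubes 10 rose and 5 fell in the overexpressor (median 0.24, with 26.2% and 30.9% of all genes), and 11 rose and 9 fell in the knockout (median 0.35, with 31.0% and 37.0% of all genes). Fhl1 (1.64) and Egr2 (1.12) led the rises in the overexpressor, and Egr2 (1.94) and Actc1 (1.76) in the knockout. Ier2 fell by 1.66 and 1.49 and Junb by 0.68 and 1.323, in overexpressor and knockout myotubes in that order. In the control, differentiation raised 6 and lowered 10 (median -0.27, with 33.9% and 28.8% of all genes), and with library totals 4 and 13; Actg1 fell by 2.13 and Egr2 by 1.86. The adjusted p of every change named here was at most 0.000513.

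Components of the Hippo pathway, with the genes of YAP, TAZ and the TEAD factors among them, made up a list of 17, all tested. In myoblasts 5 were higher and 3 lower in the overexpressor (median 0.07, with 20.7% and 19.7% of all genes), and 4 higher and 6 lower in the knockout (median -0.13, with 26.4% and 26.6% of all genes). These shares are near those of all genes. Yap1 fell by 0.35 in overexpressor myoblasts and Tead3 by 0.88, while Sav1, the scaffold of the kinases, rose by 0.45 and Tead2 by 0.39. In knockout myoblasts Tead4, which rises in muscle differentiation, was higher by 2.48 and Tead1 by 0.56, and Tead3 and the phosphatase gene Ptpn14 were lower by 1.03 and 0.62. In overexpressor myotubes 8 were higher and 5 lower (median 0.17, with 26.2% and 30.9% of all genes): Amot, the relative of Amotl2, rose by 2.11 and Tead2 by 1.21, and Mob1a and Lats1 fell by 0.94 and 0.68. In knockout myotubes 4 were higher and 7 lower (median -0.04, with 31.0% and 37.0% of all genes), and 7 and 6 with DESeq2 size factors. There Tead2 rose by 1.35 and Tead4 by 0.77, and the kinase gene Stk3 and Mob1a fell by 2.08 and 1.76. Differentiation of the control raised 4 and lowered 8 (median -0.18, with 33.9% and 28.8% of all genes), with Tead4 up by 3.53 and Wwtr1, which encodes TAZ, by 0.97, and Amot and Tead2 down by 1.31 and 1.11. The adjusted p of every change named here was at most 0.00137.

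Further targets of YAP and TEAD made up another list of 17, all tested. In myoblasts 6 were higher and 7 lower in the overexpressor (median -0.26, with 20.7% and 19.7% of all genes), and 7 higher and 7 lower in the knockout (median -0.13, with 26.4% and 26.6% of all genes). Ccn2, which encodes connective tissue growth factor and is a much used YAP target, was higher in both, by 1.15 and 2.76. Ccdc80 rose by 1.52 in overexpressor myoblasts and Ajuba and F3 (tissue factor) fell by 1.57 and 1.43, while in knockout myoblasts Ankrd1 rose by 1.33 and Crim1 and Asap1 fell by 1.12 and 1.07. In myotubes 5 were higher and 9 lower in the overexpressor (median -0.26, with 26.2% and 30.9% of all genes), and 4 higher and 12 lower in the knockout (median -0.66, with 31.0% and 37.0% of all genes). Ccn2 rose 11.2-fold and 9.44-fold, from 31.0 ± 6.80 CPM in the control to 346 ± 140 CPM in overexpressor and 292 ± 13.4 CPM in knockout myotubes (SD, n = 3). Ccn1 rose by 1.11 in the overexpressor and Fjx1 by 2.31 in the knockout. F3 fell by 3.33 and 3.03 and Nt5e by 3.14 and 3.49, in overexpressor and knockout myotubes in that order. In knockout differentiation 1 rose and 15 fell (median -0.78, with 29.8% and 35.6% of all genes), and in overexpressor differentiation 7 rose and 9 fell (median -0.31, with 29.8% and 33.0%). Control differentiation raised 6 and lowered 9 (median -0.45, with 33.9% and 28.8%), with Ankrd1 and Nt5e up by 2.59 and 2.16 and Ccn1 and Crim1 down by 1.44 and 1.36. The adjusted p of every change named here was at most 0.000799.

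The genes whose pattern over the 6 groups was most like that of a member were found among 10963 protein-coding genes, by the root mean square difference of centred log2 CPM. Tagln and Myl9 shared their nearest gene, Ldhb, at 0.32 and 0.44, and the next, Dmp1, at 0.42 and 0.53, where Tagln itself ranged over 3.57 and Myl9 over 3.37 on that scale. The nearest to Acta2 were Irx3, Plekha4 and Ank3 (0.28, 0.33 and 0.34), and the nearest to Actg2 was Agap2 (0.31, against a range of 5.73). Cnn2 was matched most closely by Notch3, Wdr1 and Tuba1b (0.12, 0.14 and 0.17, against a range of 1.88), and Srf by Zfp57, Hyal2 and Sesn1 (0.12, 0.13 and 0.14). Cnn1 had no close match, its nearest being Apol10b at 1.3201 against a range of 6.71. For Vcl, Amotl2 and Lats2 the nearest genes were Pwp1 (0.05), Loxl1 (0.16) and Pde12 (0.09), but these members ranged over only 0.65, 1.23 and 0.89. These are descriptions over 6 group means of the same libraries.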

How the data were processed

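The data were 18 libraries of polyadenylated RNA, 3 in each of 6 groups, placed by their titles. The authors deposited raw counts per gene; their processing used STAR 2.7.9a, featureCounts (Subread 2.0.3), FastQC 0.11.7, DESeq2 1.32.0 and the build mm10, per the submitters' processing notes, which give no order or settings. Of 55450 identifiers, 55104 were matched to GENCODE M21 on GRCm38, from which positions and exon lengths come. Totals were 41544358 to 79140702 counts, and floors of 3 counts cover counting error only.

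The tests used R 4.3.3 with edgeR 4.0.16 and limma 3.58.1: TMM, filterByExpr by group, robust quasi-likelihood fit of 6 groups (12 residual degrees of freedom), 12 contrasts, Benjamini-Hochberg adjustment over 17912 genes, threshold 0.05. All adjusted p-values are from this test unless another setting is named. The fit was tested on simulated data. Alternatives were edgeR's RLE scaling (named DESeq2 size factors here), library totals, no filter or a filter of 1 CPM. Others were the replicate block, only the groups compared, leaving out each library and the Wald test of DESeq2 1.42.0.

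The members and lists were chosen with earlier results of these data known. Named from each list were up to 2 genes with the largest rise and 2 with the largest fall among those past the threshold, with no overlap and at least 5 CPM on average in the group with more; the alike genes were the 3 nearest, of which some are given. Myh11, Myocd, Smtn and Lmod1 were named as markers, and Acta1 and Actc1 as copies of the actin members. The authors' variance-stabilised log2-like table was not used. Promoter sequences are from RefSeq, GRCm38.p6.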

Additional observations from a re-analysis of the deposited data

Results flagged for a closer look

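The response to differentiation differed between the lines, by the interaction test of edgeR, for 24 of the 30 gene and pair combinations examined. Among all genes, 16.6% were called higher and 22.3% lower for overexpressor against control. The shares were 20.2% and 29.9% for knockout against control, and 24.3% and 22.4% for overexpressor against knockout. The pairs share lines, so these combinations are not independent of each other. Overexpressor against control gave log2 differences of 9.53 for Cnn1, 5.26 for Myl9, 4.66 for Tagln, 4.23 for Actg2, 2.83 for Acta2, 1.28 for Cnn2, 1.28 for Srf, 0.76 for Amotl2 and 0.24 for Vcl. Knockout against control gave 5.73 for Cnn1, 3.32 for Actg2, 2.92 for Myl9, 2.90 for Tagln, 1.18 for Srf, 1.09 for Cnn2, 1.07 for Acta2 and -0.70 for Lats2. Overexpressor against knockout gave 3.80 for Cnn1, 2.34 for Myl9, 1.77 for Acta2, 1.76 for Tagln, 0.95 for Lats2, 0.92 for Amotl2 and 0.91 for Actg2. Only the call of Vcl was lost in any alternative.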

How the results depend on the processing

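Of 120 member results (10 genes in 12 comparisons), 95 kept their direction and their side of the threshold in every alternative, and none of the 100 that passed changed direction. No count of members called, both directions summed, moved by over 1.5 times. Taken by direction, in knockout differentiation the 2 higher calls became 0 with library totals, and the 1 lower call in knockout myotubes became 0 with DESeq2 size factors or library totals. Signs turned where the difference was small, and the cause was not tested. With library totals Lats2 in control differentiation was -0.20, and in knockout differentiation Acta2 was -0.11 and Myl9 -0.0051. In knockout differentiation Vcl was 0.0876 with DESeq2 size factors, 0.0876 with DESeq2's Wald test and 0.0269 with only the groups compared, where Lats2 in control differentiation was -0.0217. Amotl2 in knockout against control myotubes was -0.0088 without the filter. Leaving out 1 library at a time, the latter ran from -0.028 to 0.0344, Lats2 in overexpressor against knockout myotubes from -0.0583 to 0.1601, Amotl2 in control differentiation from -0.0457 to 0.0078, and Vcl in knockout differentiation from -0.066 to 0.0148. Pairing by the letters A, B and C was not seen: same-letter correlations ran from -0.358 to 0.264, over 0.1 for every letter in no comparison. With so few libraries in a group, these correlations cannot exclude pairing. The replicate block cost 1 member call, Vcl in the overexpressor response (0.24, adjusted p = 0.0501), for 8 members in place of 9. Among all genes called in either direction, the share that was higher moved with library totals. It went from 54.0% to 37.95% in control differentiation and from 45.8% to 57.8% in overexpressor against control myotubes. The same scaling moved it from 45.5% to 34.0% in knockout differentiation and from 42.7% to 61.0% in the overexpressor response, and DESeq2 size factors moved it from 40.35% to 51.97% in the knockout response. Without the filter, 7 members were higher and 0 lower in knockout against control myoblasts. Depth limits Myh11 and Myocd, which lie near the floor.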
